A study of Homo sapiens with 6 samples.

Results

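ABC transporter genes encode proteins with an ATP-binding cassette. They were taken here as the genes whose symbol is ABC, a letter from A to G and a number, with nothing after it, leaving out a few of the B and D subfamilies. The rule found 42 genes among the 58233 genes listed, from the A, B, C, D, E, F and G subfamilies. Their RNA levels came from 6 sequencing libraries of cells stated to be of the Huh7 line of human hepatocellular carcinoma. In 3 libraries, called TP53TG1 below, the cells had been transfected with a plasmid that expresses TP53TG1, a long noncoding RNA gene. In the 3 control libraries they had received an empty plasmid. All 6 libraries are given as the same line, and no group without a plasmid was analysed here. Separate cultures are not stated for the replicates, and p-values therefore measure a spread between libraries that may be technical. The labels also leave out the time after transfection or the share of cells that took up the plasmid. In such bulk RNA, a change in fewer cells and a smaller change in every cell cannot be told apart.

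ABC transporters use ATP to move substrates across membranes, and most carry a pair of nucleotide-binding domains and a pair of membrane domains, within a single chain or in a dimer. In the liver they stand at both poles of the hepatocyte: the canalicular membrane exports bile salts, conjugated bilirubin, drugs and sterols into bile, and the basolateral membrane returns conjugates to blood. Other members work inside the cell, in peroxisomes, mitochondria and lysosomes. The E and F subfamilies have no membrane domain and act on ribosomes.

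The regions around the transcription starts were compared between members listed at high level and members listed near 0. RefSeq start windows of 300 bases (250 before and 50 after the start, GRCh38.p14) matched 34 of the 42 members, and CpG pairs, the sites of DNA methylation, are in capitals in the 4 windows shown. ABCE1, a soluble member on chromosome 4 (chr4:145098061-145098360, plus strand), stands for the CpG-rich windows. ABCC2, the canalicular conjugate pump (chr10:99782390-99782689, plus strand), was listed at a like level with a single CpG. ABCB11, the bile salt export pump (chr2:169031275-169031574, minus strand), and ABCG8, a biliary sterol exporter (chr2:43838721-43839020, plus strand), were listed near or at 0.
ABCE1: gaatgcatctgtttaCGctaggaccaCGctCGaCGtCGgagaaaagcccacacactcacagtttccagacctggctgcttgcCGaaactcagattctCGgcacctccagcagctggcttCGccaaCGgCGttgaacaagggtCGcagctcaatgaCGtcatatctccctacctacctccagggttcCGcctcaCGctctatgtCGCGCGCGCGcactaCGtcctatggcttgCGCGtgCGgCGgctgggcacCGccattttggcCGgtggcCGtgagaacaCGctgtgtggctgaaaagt
ABCC2: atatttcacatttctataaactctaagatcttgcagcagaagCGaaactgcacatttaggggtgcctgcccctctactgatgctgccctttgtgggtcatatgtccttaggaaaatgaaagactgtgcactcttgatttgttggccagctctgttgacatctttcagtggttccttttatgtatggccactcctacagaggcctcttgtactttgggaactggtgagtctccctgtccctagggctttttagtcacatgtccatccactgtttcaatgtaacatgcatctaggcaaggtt
ABCB11: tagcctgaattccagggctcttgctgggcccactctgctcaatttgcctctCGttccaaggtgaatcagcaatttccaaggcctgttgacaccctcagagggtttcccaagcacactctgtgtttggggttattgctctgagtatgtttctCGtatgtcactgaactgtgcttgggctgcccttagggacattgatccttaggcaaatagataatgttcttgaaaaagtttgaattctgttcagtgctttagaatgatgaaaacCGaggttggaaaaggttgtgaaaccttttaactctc
ABCG8: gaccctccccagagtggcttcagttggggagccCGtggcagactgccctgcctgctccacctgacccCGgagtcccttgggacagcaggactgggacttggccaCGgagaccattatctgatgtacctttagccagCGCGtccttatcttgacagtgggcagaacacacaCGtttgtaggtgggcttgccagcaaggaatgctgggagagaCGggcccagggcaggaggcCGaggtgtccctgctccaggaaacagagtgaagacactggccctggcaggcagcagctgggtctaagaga

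The ABCE1 window holds 28 CpG and the ABCC2 window holds 1. The ratio of CpG observed to CpG expected from the C and G content was 1.06 for ABCE1 and 0.066 for ABCC2, while their mean levels over the 6 libraries were 37.0 and 34.7 FPKM. FPKM are fragments counted on a transcript, divided by its length and by the depth of the library, and a gene's value here is the sum over its transcripts. For ABCB11 the ratio was 0.198, with 3 CpG and a mean of 0.353 FPKM. For ABCG8 it was 0.285 with 8 CpG, and the gene was listed at 0 in all 6 libraries. ABCG5 and ABCG8, whose products form the biliary sterol export dimer, start head to head, and 231 bases of their windows are shared on opposite strands.

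Across the members, CpG-rich windows went with members that were listed at 1 FPKM or more. A ratio of at least 0.6 was found in 18 of the 20 matched members with a mean of at least 1 FPKM and in 4 of the 14 matched members under it. ABCC1, ABCC3 and ABCA4, also with a mean of at least 1 FPKM, had no matched window. The share was 48.7% among 34943 distinct RefSeq windows. The median ratios were 0.904 and 0.242 in these groups of members, against 0.577 over all windows. The 2 exceptions at higher level were ABCC2 and ABCB8, a mitochondrial member with a ratio of 0.538 and a mean of 13.3 FPKM. The ratio depends on the C and G content. ABCA10 counted as CpG-rich at 0.646 with 3 CpG and 25% C and G, while ABCB8 had 15 CpG and 61% C and G. The 4 CpG-rich members at low level were ABCA5, ABCC6, ABCC9 and ABCG4. For ABCC9, ABCB9 and ABCC10 the nearest RefSeq start lay over 1000 bases from the start of the longest annotated coding transcript, so their windows may not be those in use. These are counts over genes that are not independent, and DNA methylation was not measured.

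Short motifs were counted on both strands of the same windows. GGGCGG, the GC box, was in 20 of 34 member windows against 44.9% of all windows. TGACNNNGC, the core of the antioxidant response element, was in 6 of 34 against 13.3%, and CACGTG, an E-box, in 6 of 34 against 7.23%. TATAAA was in 5 of 34, ABCC2 among them, against 11.6% of all windows. A match is a description of these letters and is not a measured binding site.

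**Figure D1:**
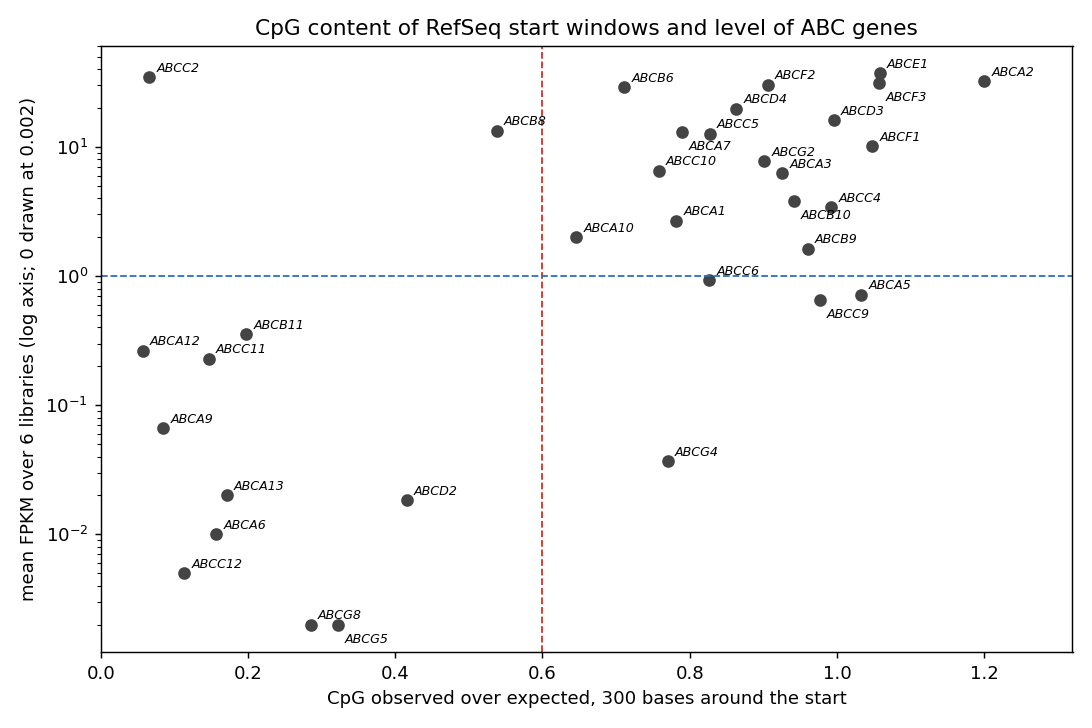
Each point is 1 of the 34 ABC genes with a RefSeq start window: the horizontal axis gives CpG observed over expected in 300 bases, the vertical log axis the mean FPKM over 6 libraries. Most members above 1 FPKM (blue line) lie right of 0.6 (red line), while ABCC2, at 34.7 FPKM and 0.066, lies far to the upper left and ABCB8, at 13.3 FPKM and 0.538, just left of the red line.

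Before the comparison, the labels were checked on the transfected gene. TP53TG1 was listed at 69.8, 134 and 70.5 FPKM in TP53TG1 replicates 1, 2 and 3, against 10.6, 5.25 and 6.15 FPKM in control replicates 1, 2 and 3. The groups did not overlap, and the log2 fold change on log2(FPKM + 1) was 3.46 (SE 0.381), and the Benjamini-Hochberg adjusted p from limma was 0.0573. The adjusted p was 0.0390 with median-of-ratios scaling, 8.97e-22 with the replicate number as a block and 0.00906 with both. Blocked p-values without scaling rest mostly on a variance shared over genes, not on each gene's own spread between libraries. Library totals of FPKM ran from 599081 (TP53TG1 replicate 1) to 890541 (control replicate 1). If the step between low values is 1 fragment, the libraries held 15800000 to 19600000 fragments, and 1 FPKM of a transcript of 5600 nt, about the length of a long ABC mRNA, rests on 88.2 to 110 fragments. The 2 libraries numbered 1 stood apart from the others, and the median of all 12853 tested genes was shifted by -0.35 in log2 between TP53TG1 and control libraries. Median-of-ratios scaling, which aligns the libraries on their median gene, brought that shift to -0.0087, so changes are also given relative to it. Hepatocyte markers were low in both groups: ALB, serum albumin, lay between 0.56 and 1.22 FPKM in TP53TG1 and between 0.53 and 1.10 FPKM in control libraries, and TTR was listed at 0 in 4 of the 6 libraries. Summed over 11 hepatocyte markers, of which 7 were tested, the level was 27.2 to 70.5 FPKM in TP53TG1 and 60.7 to 78.9 FPKM in control libraries. Of 9 intestinal markers 7 were tested, among them KRT20 at 51.1 to 112 FPKM with TP53TG1 and 117 to 171 FPKM in controls, while CDX1 was listed at 0 throughout. VIL1, CDH17 and CEACAM5 were lower in every TP53TG1 library than in every control, as were 13.3% of all tested genes. They stayed so after scaling, against 2.18% of all tested genes, while KRT20 was so only before scaling. The median log2 fold change of the 7 lay 0.63 below that of all genes. TFF3 and CDX2, at -0.058 and -0.32, lay above the median of all genes and their groups overlapped. LGALS4 was listed at 27.1, 12.7 and 3.21 FPKM in TP53TG1 replicates 1, 2 and 3, against 134.71, 23.96 and 22.59 FPKM in control replicates 1, 2 and 3, with an adjusted p by limma of 0.748, of 4.57e-06 with the replicate block and of 0.601 with block and scaling. The sum of the intestinal markers was 119 to 173 FPKM in TP53TG1 and 199 to 391.9 FPKM in control libraries. Of 6 fibroblast markers 5 were tested and their sum was 22.6 to 32.5 FPKM with TP53TG1 and 19.1 to 21.5 FPKM in controls. The median log2 fold change of these 5 lay 0.84 above that of all genes, and 0 of them lay below it. COL1A1 was higher in every TP53TG1 library than in every control, as were 0.428% of all tested genes. After scaling the same held for COL1A1, COL3A1 and LUM, against 1.89% of all tested genes, while COL1A2 and DCN overlapped in both. Of 4 blood markers only CD68 was tested, at 45.2 to 65.2 FPKM with TP53TG1 and 32.4 to 62.1 FPKM in controls. PTPRC did not exceed 0.13 FPKM. The part of these markers in the results below was not tested.

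Of the 42 members, 23 had a mean of at least 1 FPKM and were tested. A further 16 were listed above 0 with a mean under 1 FPKM, and 3 were listed at 0 in all libraries. These were ABCG5, ABCG8 and ABCC13, which is annotated as a pseudogene. Means of at least 10 FPKM were reached by 14 members, and 13 had a mean under 0.1 FPKM. Summed over the members, the level was 200.2, 381.7 and 378 FPKM in TP53TG1 replicates 1, 2 and 3, against 417, 470 and 458 FPKM in control replicates 1, 2 and 3. The sum in TP53TG1 replicate 1 lay far under the other 5. Its median-of-ratios scaling factor was the lowest too, at 0.615 against 0.994 to 1.19 in the other 5 libraries.

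No ABC gene passed the test between TP53TG1 and control libraries. Of 12853 genes tested, 1 passed an adjusted p of 0.05 by limma (0.00778% of the genes), and 0 of the 23 members did, with adjusted p-values of 0.748 to 0.899. Unadjusted p-values were under 0.05 for 2 members, ABCC3 and ABCA4, against 2.35% of all genes. ABCA4 met the minimum of 1 FPKM only through its control libraries, with means of 0.303 FPKM with TP53TG1 and 2.68 FPKM in controls, so a difference followed from the filter and its tests below are a description. The log2 fold change was below 0 for 22 of the 23 members, as for 91.4% of all tested genes. After scaling it was below 0 for 17 of 23, against 51.6% of all tested genes. The median over the 23 members was -0.44, which is 0.092 below the median of all tested genes, and 17 of 23 members lay below that median. With scaling, 0 members and 0.0156% of all genes passed. After scaling, the members' median was -0.068.

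Groups that did not overlap, with every TP53TG1 library under every control library, were found for 3 of 23 members, ABCA2, ABCA4 and ABCC3. The same was true of 13.3% of all tested genes. No member had every TP53TG1 library above every control library, against 0.428% of all tested genes. After scaling, the groups of all 23 members overlapped, while 2.18% of all tested genes did not overlap with TP53TG1 lower and 1.89% with TP53TG1 higher. TP53TG1 replicate 1 was the lowest of the 6 libraries for 19 of 23 members, against 68.3% of all tested genes.

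**Figure D2:**
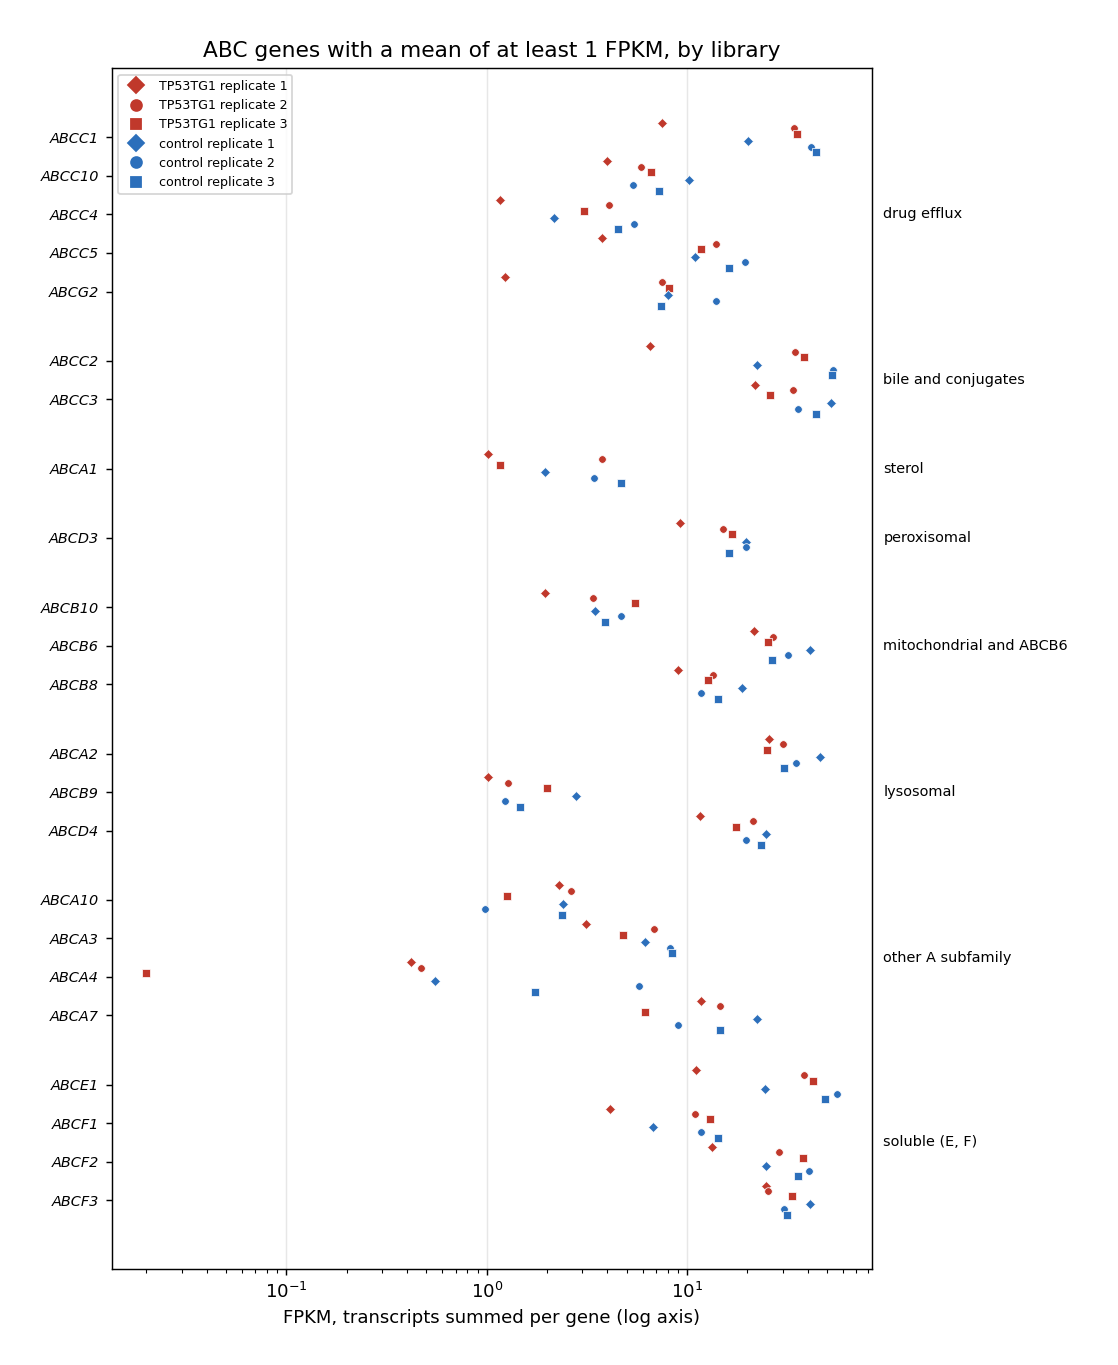
FPKM (log axis) of the 23 tested ABC genes in each library, TP53TG1 libraries in red above control libraries in blue, with 1 marker shape per replicate number and genes grouped by role. TP53TG1 replicate 1 (red diamonds) is the lowest of 6 libraries for 19 of the 23 genes, against 68.3% of all tested genes. The other TP53TG1 libraries mostly lie among the controls. For ABCC1, ABCC2, ABCC4, ABCC5 and ABCE1 control replicate 1 is itself the lowest control, while it is the highest of 6 libraries for 9 of the 23 genes.

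The drug efflux members were represented by 5 tested genes, all with a log2 fold change below the median of all genes and none past the test. ABCC1 and ABCC5 led them in level. ABCC1 encodes MRP1, a broad exporter of drugs and of glutathione and glucuronide conjugates, on chromosome 16 from 15949577 to 16143074 (GRCh38). Its levels were 7.48, 34.3 and 35.3 FPKM in TP53TG1 replicates 1, 2 and 3, against 20.1, 41.7 and 43.8 FPKM in control replicates 1, 2 and 3. Both libraries numbered 1 were low within their group, and replicates 2 and 3 of the 2 groups lay close. Its log2 fold change was -0.63 (SE 0.584), -0.25 after scaling and 0.063 without TP53TG1 replicate 1. The last setting keeps the low control replicate 1. Without both libraries numbered 1 the log2 fold change was -0.29, against a median of -0.16 over all tested genes.

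ABCG2, on chromosome 4 from 88090264 to 88231322, encodes BCRP, the exporter of topotecan, urate and porphyrins. Its levels were 1.24, 7.47 and 8.13 FPKM in TP53TG1 replicates 1, 2 and 3, and 8.04, 13.97 and 7.45 FPKM in control replicates 1, 2 and 3. The groups overlapped, with TP53TG1 replicate 1 far below and control replicate 2 above the remaining 4. On the log2 scale the difference was -0.91 (SE 0.568, adjusted p = 0.748 by limma), -0.61 after scaling and -0.25 without TP53TG1 replicate 1.

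ABCC5 encodes MRP5, an exporter of cyclic nucleotides and nucleotide analogues. Levels were 3.78, 13.98 and 11.8 FPKM with TP53TG1 and 10.9, 19.4 and 16.1 FPKM in controls. The log2 fold change was -0.73 (SE 0.479), -0.38 after scaling and -0.22 without TP53TG1 replicate 1. Without both libraries numbered 1 it was -0.43. Each TP53TG1 library was below the control of the same number, also after scaling, where the ratios were 0.629, 0.768 and 0.873 for numbers 1, 2 and 3. The same held after scaling for ABCC1, ABCC2, ABCC4 and ABCA3, which makes 5 of 23 members, against 14.4% of all tested genes. ABCC4 encodes MRP4, which exports cyclic nucleotides and bile acids, and averaged 2.78 ± 1.48 FPKM with TP53TG1 and 4.04 ± 1.68 FPKM in controls (SD, n = 3 each). ABCC10 encodes MRP7, an exporter of taxanes. It averaged 5.49 ± 1.34 FPKM with TP53TG1 and 7.60 ± 2.45 FPKM in controls (SD, n = 3 each), and its exons overlap those of DLK2 on the opposite strand. Whether counting used the strand is not stated, so reads of overlapping genes cannot be assigned with certainty. Of the other drug efflux members, ABCC11 lay between 0.09 and 0.26 FPKM with TP53TG1 and between 0.07 and 0.42 FPKM in controls, and ABCB5 and ABCC12 did not exceed 0.02 FPKM.

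Among the bile and conjugate transporters, the 2 organic anion pumps were among the most abundant members, while the bile salt export pump was under 1 FPKM. ABCC2 encodes MRP2, which carries bilirubin glucuronides and drug conjugates across the canalicular membrane (chromosome 10, 99782640 to 99852594). The values were 6.56, 34.7 and 38.4 FPKM in TP53TG1 replicates 1, 2 and 3, against 22.2, 53.4 and 53.1 FPKM in control replicates 1, 2 and 3. Libraries numbered 1 were again low in both groups, and replicates 2 and 3 with TP53TG1 lay between control replicate 1 and the other controls. A log2 fold change of -0.89 (SE 0.641, adjusted p = 0.748 by limma) came with p = 0.3 in an exact two-sided permutation test. It was -0.52 after scaling and -0.12 without TP53TG1 replicate 1. Without both libraries numbered 1 and with scaling, it was -0.36.

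ABCC3 encodes MRP3, which returns glucuronides and bile acids to blood across the basolateral membrane (chromosome 17, 50634777 to 50692252). Its values were 21.9, 34.0 and 25.8 FPKM in TP53TG1 replicates 1, 2 and 3, and 52.2, 36.0 and 44.2 FPKM in control replicates 1, 2 and 3. The groups did not overlap, and unlike ABCC2 the control numbered 1 was the highest. The means were 27.2 ± 6.14 FPKM with TP53TG1 and 44.1 ± 8.10 FPKM in controls (SD, n = 3 each). The log2 fold change was -0.68 (SE 0.298), with an unadjusted p of 0.048 and an adjusted p of 0.748 by limma, and the exact two-sided permutation p was 0.1, the smallest that 3 against 3 libraries allow. After scaling the groups overlapped and the log2 fold change was -0.29. ABCB11, the bile salt export pump, was listed at 0.02, 0.49 and 0.72 FPKM with TP53TG1 and at 0.16, 0.29 and 0.44 FPKM in controls, under the minimum for testing.

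Sterol export was represented by 1 tested gene. ABCA1 passes cholesterol and phospholipid to apolipoprotein A-I (chromosome 9, 104781002 to 104928237). FPKM values were 1.02, 3.78 and 1.17 in TP53TG1 replicates 1, 2 and 3, against 1.96, 3.43 and 4.69 in control replicates 1, 2 and 3. TP53TG1 replicates 1 and 3 were below every control and replicate 2 lay among them. Its log2 fold change was -0.61 (SE 0.443), and -0.35 after scaling. ABCG1, which exports cholesterol to HDL, did not exceed 0.22 FPKM in any library. ABCG4, its close relative in the brain, had 0.22 FPKM in TP53TG1 replicate 1 and 0 in the other 5 libraries, and ABCG5 and ABCG8 were at 0 in all. An exact 0 in such files can be a failed estimate, so these genes are described as listed at 0.

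Peroxisomal transport was also represented by 1 tested gene. ABCD3, or PMP70, imports branched-chain and dicarboxylic acids and bile acid precursors (chromosome 1, 94418455 to 94518666). It was listed at 9.19, 15.1 and 16.8 FPKM with TP53TG1 and at 19.6, 19.8 and 16.1 FPKM in controls, with a log2 fold change of -0.44 (SE 0.332) and of -0.068 after scaling. ABCD2, a peroxisomal transporter of fatty acyl-CoA, did not exceed 0.04 FPKM.

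Set side by side, the role groups gave these medians of the log2 fold change minus the median of all tested genes. The 2 bile and conjugate members were at -0.44, the 5 drug efflux members at -0.28, the single sterol member at -0.26 and the single peroxisomal member at -0.094. After scaling, with the scaled median of all genes subtracted, they were -0.40, -0.25, -0.34 and -0.059 in the same order. Leaving out 1 library at a time moved the drug efflux value between -0.57 and -0.093 and the bile value between -0.56 and -0.21. The sterol value ran from -0.53 to -0.0052, near 0 without TP53TG1 replicate 3, and the peroxisomal value from -0.20 to -0.031. With 1 to 5 genes in a group, the difference between role groups was not tested.

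**Figure D3:**
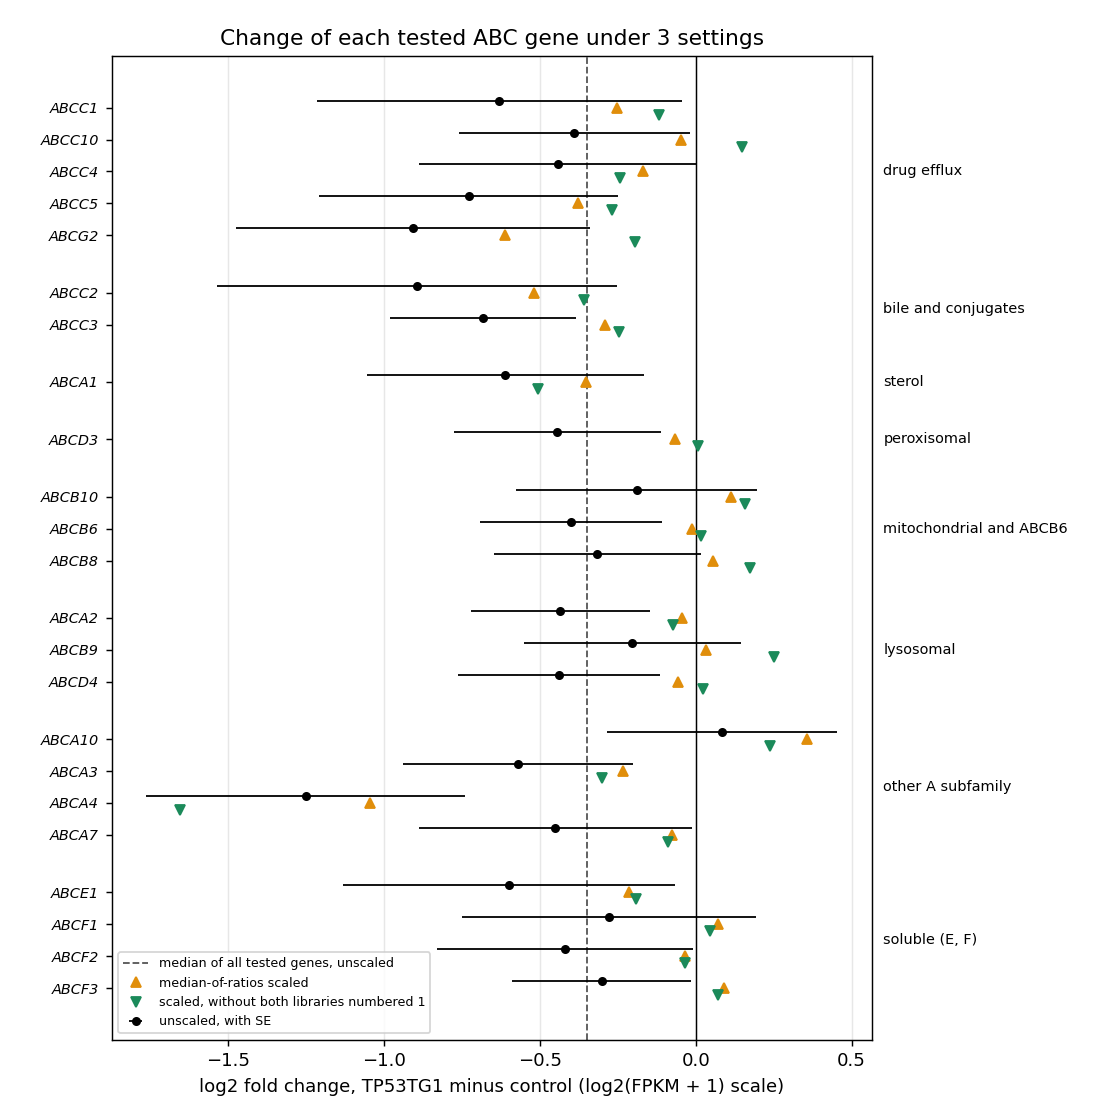
Log2 fold change of each tested ABC gene, TP53TG1 minus control on log2(FPKM + 1), as deposited with its SE (black), after median-of-ratios scaling (orange) and after scaling without both libraries numbered 1 (green). The dashed line is the median of all tested genes, -0.35, and after scaling most members move close to 0, with ABCA4 farthest below it at -1.05.

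Mitochondrial members, counting ABCB6, numbered 3, and all were tested and none passed. ABCB6, a porphyrin transporter and the Lan blood group protein, averaged 24.7 ± 2.74 FPKM with TP53TG1 and 33.3 ± 7.35 FPKM in controls (SD, n = 3 each). ABCB8, of the inner mitochondrial membrane, averaged 11.7 ± 2.36 FPKM with TP53TG1 and 14.9 ± 3.53 FPKM in controls (SD, n = 3 each). ABCB10, which takes part in haem synthesis, averaged 3.61 ± 1.77 and 4.02 ± 0.616 FPKM in TP53TG1 and control libraries (SD, n = 3 each). After scaling, the log2 fold changes of ABCB6, ABCB8 and ABCB10 were -0.011, 0.057 and 0.11.

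Lysosomal members included ABCA2, a lipid transporter best known from myelinating cells. It was listed at 25.77, 30.02 and 24.99 FPKM in TP53TG1 replicates 1, 2 and 3, against 46.3, 34.8 and 30.5 FPKM in control replicates 1, 2 and 3, without overlap by a narrow margin. Its log2 fold change was -0.43 (SE 0.286) and -0.043 after scaling, where the groups overlapped. ABCD4, which exports cobalamin from lysosomes, averaged 16.9 ± 4.94 FPKM with TP53TG1 and 22.7 ± 2.58 FPKM in controls (SD, n = 3 each). ABCB9, a peptide transporter, lay between 1.01 and 2.01 FPKM with TP53TG1 and between 1.24 and 2.79 FPKM in controls. Its exons overlap those of ARL6IP4 on the opposite strand, a gene at 133 FPKM, and those of OGFOD2. ABCA5 lay between 0.41 and 0.81 FPKM with TP53TG1 and between 0.59 and 0.96 FPKM in controls, and was not tested.

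In the rest of the A subfamily, ABCA4 had the largest difference of the 23 tested members as deposited, a rank that rested on single libraries. ABCA4 clears retinoids from photoreceptors and is the Stargardt disease gene (chromosome 1, 93992835 to 94121132). It was listed at 0.42, 0.47 and 0.02 FPKM in TP53TG1 replicates 1, 2 and 3, against 0.55, 5.76 and 1.74 FPKM in control replicates 1, 2 and 3. The groups did not overlap, yet control replicate 1 was close to 2 of the TP53TG1 libraries. The difference was -1.25 in log2 (SE 0.511, adjusted p = 0.748 by limma). Without control replicate 2 it was -0.68, against -0.82 for ABCC3, and without TP53TG1 replicate 3 it was -1.08, against -1.31 for ABCC2. With coding transcripts only, ABCA4 and ABCA10 fell under the minimum for testing, and 21 members were tested. With the replicate number as a block, ABCA4 passed with an adjusted p of 0.016 and was the only member to do so, a call that carries the same limit. Its SE was 0.334 with the block, against 0.511 without it. In that fit 192 genes passed, or 1.49% of those tested, and 0.91% passed with lower values in TP53TG1 libraries. With scaling added to the block, 6 genes passed (0.0467%) and the adjusted p of ABCA4 was 0.896. Over all alternatives its adjusted p ran from 0.016 to 1. In control replicates 2 and 3 most of the signal was a noncoding transcript of 327 nt (ENST00000484388), listed there at 4.29 and 1.33 FPKM and at 0 in the other 4 libraries.

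ABCA3, which loads surfactant lipids into lamellar bodies, was listed at 3.14, 6.87 and 4.81 FPKM with TP53TG1 and at 6.20, 8.18 and 8.37 FPKM in controls, with a log2 fold change of -0.57 (SE 0.369) and of -0.23 after scaling. ABCA7, a phospholipid transporter tied to the risk of Alzheimer disease, averaged 10.8 ± 4.31 FPKM with TP53TG1 and 15.3 ± 6.62 FPKM in controls (SD, n = 3 each). ABCA10 was the single tested member with a positive log2 fold change as deposited, 0.085 (SE 0.370), at 2.06 ± 0.717 FPKM with TP53TG1 and 1.92 ± 0.811 FPKM in controls (SD, n = 3 each). ABCA8, ABCA9, ABCA6, ABCA10 and ABCA5 lie side by side on chromosome 17, from 68867292 to 69327244. Within that cluster ABCA10 and ABCA5 had means of 1.99 and 0.715 FPKM over the 6 libraries, and ABCA6, ABCA8 and ABCA9 had means of 0.010, 0.037 and 0.067 FPKM. ABCA12, the keratinocyte lipid transporter, had a mean of 0.265 FPKM and ABCA13 of 0.020 FPKM. Of the remaining C subfamily, ABCC6, the gene of pseudoxanthoma elasticum, lay between 0.17 and 1.23 FPKM with TP53TG1 and between 0.18 and 2.01 FPKM in controls. It shares sequence with the pseudogenes ABCC6P1 and ABCC6P2, so its value is uncertain. ABCC9, a subunit of potassium channels, lay between 0.51 and 0.78 FPKM with TP53TG1 and between 0.56 and 0.81 FPKM in controls, and its relative ABCC8 did not exceed 0.02 FPKM.

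The soluble members of the E and F subfamilies were all tested, at 10.2 to 37.0 FPKM on average. ABCE1, an iron-sulfur protein, splits ribosomes after termination. It was listed at 11.1, 38.6 and 42.7 FPKM in TP53TG1 replicates 1, 2 and 3, against 24.4, 56.3 and 48.8 FPKM in control replicates 1, 2 and 3. As for ABCC1 and ABCC2, both libraries numbered 1 were low. The log2 fold change of -0.60 (SE 0.534) was -0.22 after scaling and -0.0040 without TP53TG1 replicate 1, which keeps the low control replicate 1. Without both libraries numbered 1 it was -0.36. ABCF1, which binds initiation factor eIF2, averaged 9.34 ± 4.65 FPKM with TP53TG1 and 10.96 ± 3.85 FPKM in controls (SD, n = 3 each). ABCF2 averaged 26.7 ± 12.3 FPKM with TP53TG1 and 33.8 ± 8.09 FPKM in controls (SD, n = 3 each). ABCF3 averaged 27.8 ± 4.79 FPKM with TP53TG1 and 34.5 ± 5.84 FPKM in controls (SD, n = 3 each). After scaling, the log2 fold changes of ABCF1, ABCF2 and ABCF3 were 0.071, -0.034 and 0.089. The exons of ABCE1 overlap those of ANAPC10 and OTUD4 on the opposite strand.

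Members differed among themselves in how libraries numbered 1 departed from the rest. For ABCC2, ABCC1 and ABCE1 this departure was larger than the difference between the groups. The same was true of other members, ABCA7, ABCA2 and ABCF1 among them. The value of replicate 1 minus the mean of replicates 2 and 3 was taken on log2(FPKM + 1), and the median of all tested genes was subtracted. For ABCC2 this was -1.66 in TP53TG1 and -1.15 in control libraries, and for ABCC1 it was -1.43 and -0.98 in the same order. ABCE1 gave -1.13 with TP53TG1 and -0.997 in controls, and ABCF1 gave -0.69 and -0.77 in the same order. On the other side, ABCA7 gave 0.92 with TP53TG1 and 0.97 in controls, and ABCA2 gave 0.565 and 0.572 in the same order. ABCG2 was low in replicate 1 mainly with TP53TG1, at -1.32, against -0.24 in controls. Across the 23 members the values of the 2 groups had a Pearson correlation of 0.631 and a Spearman correlation of 0.643, and across 11273 tested protein-coding genes the Pearson correlation was 0.787. Genes are not independent replicates, and all of them share the same libraries.

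**Figure D4:**
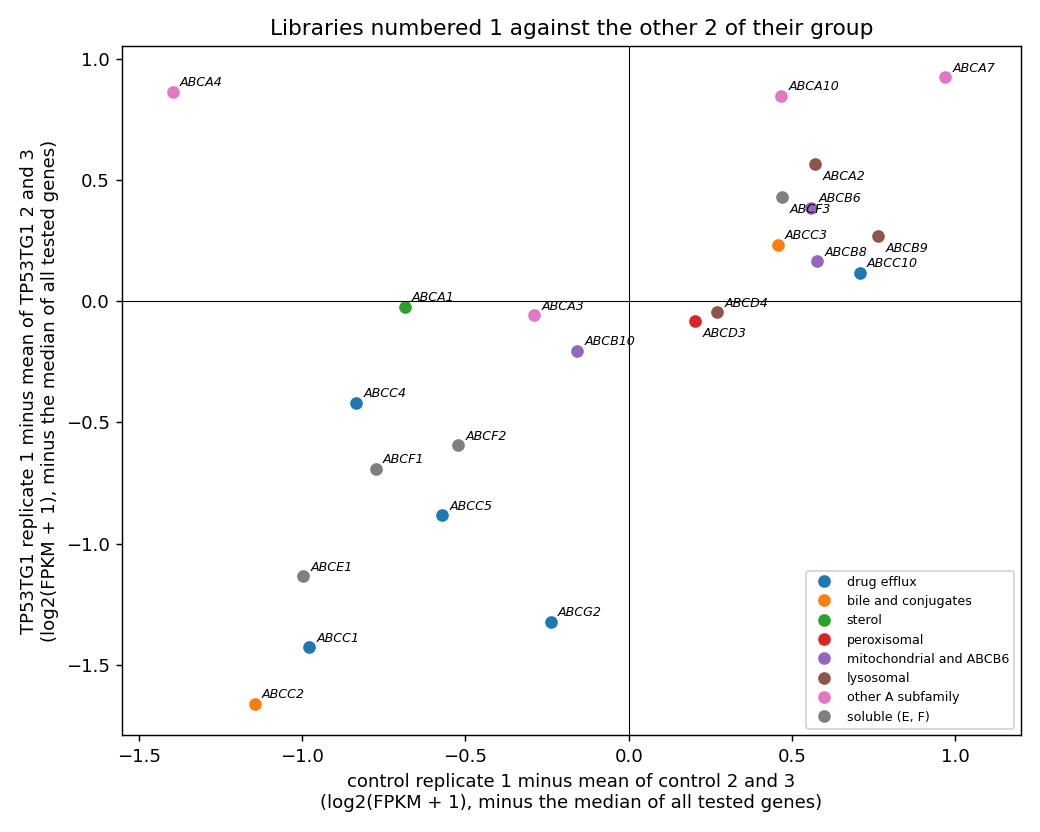
Each point is a tested ABC gene: replicate 1 minus the mean of replicates 2 and 3 in TP53TG1 libraries (vertical) and in control libraries (horizontal), on log2(FPKM + 1) with the median of all tested genes subtracted. ABCC2, ABCC1 and ABCE1 lie low in both groups and ABCA7 high in both, while ABCG2 lies low mainly on the TP53TG1 axis.

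Transcript length moved with this deviation. Across the members, log2 transcript length and the deviation of replicate 1 had Pearson correlations of -0.51 with TP53TG1 and -0.33 in controls, and across all tested protein-coding genes of -0.53 and -0.57. The 5 members over 4500 nt had a median deviation of -0.42 with TP53TG1 and -0.83 in controls, and the 9 members under 2500 nt of 0.39 and 0.47. In the comparison of TP53TG1 with control libraries, the median log2 fold change minus that of all genes was -0.26 for the 5 long members and -0.052 for the 9 short ones, against -0.036 and 0.016 for all coding genes of these lengths. The part of length and of RNA quality in the members' values was not tested.

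The make-up of transcripts differed in the same libraries. ABCC3 has a full-length coding transcript of 5716 nt (ENST00000285238), which held 12.8%, 38.8% and 44.0% of the gene's FPKM in TP53TG1 replicates 1, 2 and 3, and 25.5%, 40.4% and 36.4% in control replicates 1, 2 and 3. A transcript of 2277 nt with a retained intron (ENST00000503337) held 54.4%, 9.10% and 2.09% with TP53TG1 and 44.3%, 10.3% and 13.3% in controls. In both groups the library numbered 1 thus had the smallest share of the long transcript and the largest of the short one. ABCA2 showed the same order for its transcript of 8063 nt, which held 4.38%, 26.4% and 18.1% with TP53TG1 and 5.83%, 20.1% and 27.2% in controls. The retained intron transcript of ABCA2, of 886 nt, held 51.6%, 18.7% and 24.01% with TP53TG1 and 47.1%, 20.5% and 21.3% in controls. Protein-coding transcripts of ABCF3 held 34.0%, 79.2% and 70.9% with TP53TG1 and 45.4%, 68.6% and 61.7% in controls. In ABCC2, by contrast, coding transcripts held 95.8% to 99.4% with TP53TG1 and 97.6% to 99.9% in controls. All coding transcripts of ABCC3 together held 34.0%, 40.6% and 57.5% with TP53TG1 and 31.1%, 40.7% and 38.0% in controls. Those of ABCA2 held 6.13%, 36.4% and 27.3% with TP53TG1 and 9.59%, 33.4% and 35.4% in controls. Transcripts not annotated as protein-coding thus held most of the FPKM of ABCA2 in all 6 libraries and of ABCC3 in 5 of them, and of ABCF3 in the libraries numbered 1. They also held most of ABCD4 and ABCA10 in all 6. Coding transcripts of ABCD4 held 7.75% to 15.5% with TP53TG1 and 8.67% to 30.1% in controls. Those of ABCA10 held 0% to 18.2% with TP53TG1 and 0% to 15.1% in controls.

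**Figure D5:**
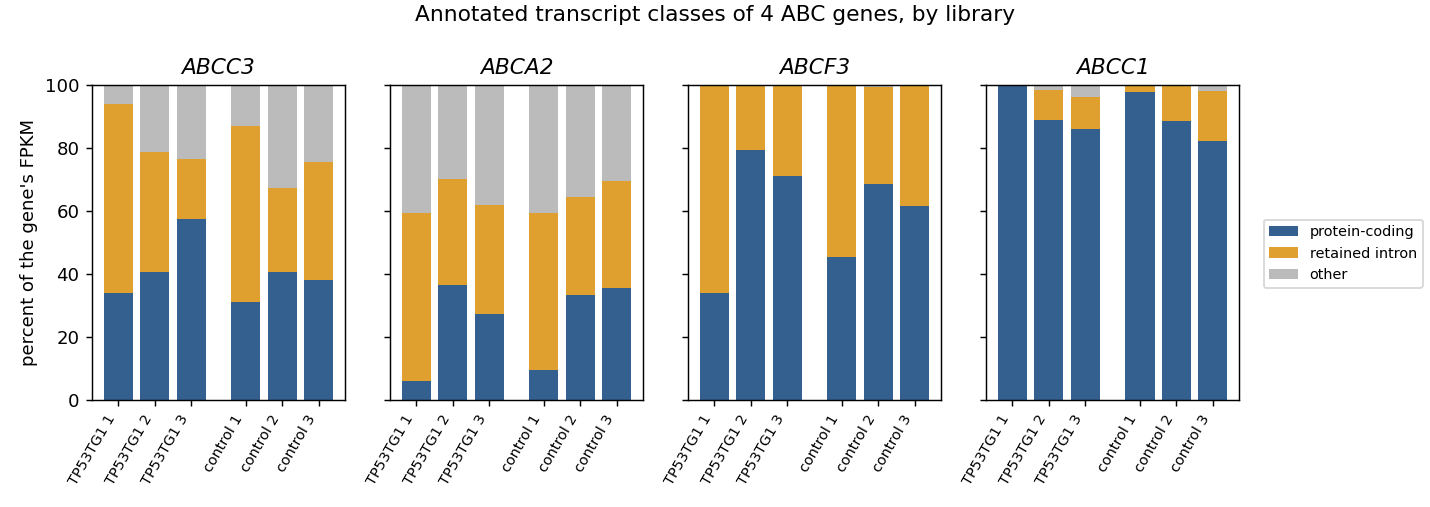
Share of a gene's FPKM (percent) held by protein-coding, retained intron and other annotated transcripts in each library, TP53TG1 left of control, for ABCC3, ABCA2, ABCF3 and ABCC1. The protein-coding share of ABCF3 is 34.0% in TP53TG1 replicate 1 and 45.4% in control replicate 1, under the other libraries of each group, while that of ABCC1 is at least 82.3% in all 6.

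Genes that work with the ABC members were looked at in 7 further lists, and 0 of their 54 tested genes passed the test. Among nuclear receptors and NFE2L2, which control several transporter genes, 6 of 10 genes were tested and all 6 lay below the median of all genes. NR1H3, which encodes liver X receptor alpha, had means of 9.25 ± 2.89 FPKM with TP53TG1 and 15.2 ± 6.99 FPKM in controls, and NFE2L2 averaged 37.2 ± 16.1 FPKM with TP53TG1 and 53.0 ± 9.28 FPKM in controls (SD, n = 3 each). RXRB averaged 13.4 ± 2.37 FPKM with TP53TG1 and 20.0 ± 2.31 FPKM in controls (SD, n = 3 each). It was lower in every TP53TG1 library than in every control, as were 13.3% of all tested genes, and its groups overlapped after scaling. Of 13 genes of bile acid and drug uptake and conjugation, 5 were tested. SLCO2B1, an uptake transporter of conjugated steroids and statins, was listed at 2.63, 9.82 and 8.70 FPKM in TP53TG1 replicates 1, 2 and 3, against 2.46, 2.52 and 2.29 FPKM in control replicates 1, 2 and 3. It was above every control in each TP53TG1 library, by little in replicate 1, with a log2 fold change of 1.08 (SE 0.459, adjusted p = 0.748 by limma) and an adjusted p of 0.071 with the replicate number as a block and of 0.568 with scaling as well. CYP27A1, of bile acid synthesis, averaged 12.7 ± 1.98 FPKM with TP53TG1 and 19.9 ± 5.92 FPKM in controls, and UGT1A1, which conjugates bilirubin, averaged 100.4 ± 22.4 FPKM with TP53TG1 and 119.0 ± 19.2 FPKM in controls (SD, n = 3 each).

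Of 14 sterol handling genes 9 were tested, and SREBF1, a regulator of lipid synthesis, had the smallest p at 65.6 ± 31.3 FPKM with TP53TG1 and 101 ± 15.5 FPKM in controls (SD, n = 3 each). MYLIP and SREBF2 followed, with log2 fold changes of -0.62 and -0.55. After scaling SREBF1, MYLIP and SREBF2 were at -0.31, -0.34 and -0.16. Only these 3 of the 9 lay below the median of all genes, and the median of the list lay 0.12 above it. All 12 peroxisomal genes were tested. PEX5, the receptor for imported proteins, averaged 16.4 ± 5.91 FPKM with TP53TG1 and 24.2 ± 5.43 FPKM in controls (SD, n = 3 each). ACBD5 and ACSL1 had log2 fold changes of -0.71 and -0.49. After scaling PEX5, ACBD5 and ACSL1 were at -0.20, -0.43 and -0.0995. All 11 genes of iron-sulfur and haem synthesis were tested. ISCU, the iron-sulfur scaffold, had a mean of 63.5 ± 3.04 FPKM with TP53TG1 and of 96.7 ± 14.3 FPKM in controls (SD, n = 3 each). PPOX and NFS1 had log2 fold changes of -0.58 and -0.51. ISCU, PPOX and NFS1 were lower in every TP53TG1 library than in every control, as were 13.3% of all tested genes. After scaling their groups overlapped, with log2 fold changes of -0.19, -0.23 and -0.11. Of the ribosome recycling genes 9 were tested, and EIF1, GSPT1 and EIF2S1 had the smallest p-values. Their log2 fold changes were -0.43, -0.34 and -0.40, against a median of -0.35 over all tested genes. After scaling they were -0.024, 0.055 and -0.0042. TAP1 and TAP2, ABC genes under another symbol that load peptides for antigen presentation, had log2 fold changes of -0.31 and -0.46. After scaling these were 0.040 and -0.094. The medians of these lists minus that of all genes ran from -0.20 for the nuclear receptors to 0.17 for uptake and conjugation. Genes below the median of all genes numbered 1 of 5 for uptake and conjugation and 8 of 12 for the peroxisome. They numbered 7 of 11 for iron-sulfur and haem synthesis and 4 of 9 for ribosome recycling.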

How the data were processed

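RNA of 3 TP53TG1 and 3 control libraries was extracted with TRIzol, cleared of DNA with DNase I and put through the TruSeq RNA kit of Illumina, per the labels' protocols. The submitters' processing notes name HISAT2, StringTie and the build GRCh38.p10, without versions. Strand use is not given in the sources used here, nor is the annotation release. Each library's deposited file holds 1 value per transcript, and its header names no unit. The deposited values were taken as FPKM, since they are not whole numbers and the library totals differ. Coverage per base would also give such values.

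Blank gene names were filled by transcript from the other libraries, and transcripts were summed per gene identifier. Lengths, classes, exons and gene coordinates came from GENCODE release 29 (GRCh38), which held 99.8% of the transcripts. Start windows came from RefSeq (GRCh38.p14), and where a gene had several the one nearest the start of its longest coding transcript was used. CpG expected was the product of the C and G counts over the window length. No 2 libraries held identical values. A mean of at least 1 FPKM was required, and the 12853 genes that met it were fitted on log2(FPKM + 1) with limma 3.58.1 in R 4.3.3 (eBayes with trend, all 6 libraries, no covariate), two-sided, with Benjamini-Hochberg adjustment over all of them at 0.05. Changes of low genes come out smaller on this scale than as a ratio. Single values had exact two-sided permutation tests. Tables and figures used Python 3.11.15, pandas 2.3.3 and matplotlib 3.10.9. Depth was estimated from the smallest values of single-transcript genes of 300 to 1500 nt, and no interval was drawn from it.

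Deviations from the group means correlated at 0.710, 0.562 and 0.289 between libraries of the same number 1, 2 and 3, above the limit of 0.1 for pairing. Unlike numbers reached 0.400, and the labels do not say what a number marks. The blocked fit is therefore given where it changes a call. With 2 residual degrees of freedom and no scaling, its SEs were 0.335 for ABCA1, 0.334 for ABCA4 and 0.331 for ABCC2. Without the block they were 0.443, 0.511 and 0.641. Blocked p-values without scaling thus rest mostly on a variance shared over genes, not on each gene's own spread between libraries. Every tested ABC gene is named, the others by their level, and up to 3 genes with the smallest p from each further list. Of the ribosome recycling list 1 of 10 entries had no match. The members and lists were chosen with earlier results of these data known. Some genes of the B and D subfamilies are not reported here. Alternatives were median-of-ratios scaling, TPM, a pseudocount of 0.1, no filter or a mean of at least 5 FPKM, the replicate block, coding transcripts only, and leaving out libraries.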

Additional observations from a re-analysis of the deposited data

How the results depend on the processing

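No member passed under any alternative except ABCA4 with the replicate block, which gave a count of 1 member and 192 genes. Over all genes the count was 2 with median-of-ratios scaling, 6 with the replicate block and scaling, 2 at a mean of at least 5 FPKM, 0 without a filter, and 0 to 1 with a library left out (0 without control replicate 1 or 3). The members without overlap and lower with TP53TG1 numbered 0 after scaling, 0 as TPM (2.88% of all genes), 2 with coding transcripts only (12.5%), 9 without both libraries numbered 1 (35.5%) and 3 to 9 with a library left out (18.3% to 30.3%, 7 without TP53TG1 replicate 2, 6 without TP53TG1 replicate 3 or control replicate 2, 9 without control replicate 1, 5 without control replicate 3). Without both libraries numbered 1 and with scaling, chosen after seeing the data, 5 members were lower, against 17.6% of all genes, and 1 was higher, ABCB8, against 15.1%. The members' median minus that of all genes was -0.18 to -0.089 with a library left out and -0.31 without a filter, where low genes enter the median of all genes, and the value of the peroxisomal member was then -0.31.

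The sign turned in these cases. With scaling, with or without the block, log2 fold changes were 0.11 for ABCB10, 0.057 for ABCB8, 0.032 for ABCB9, 0.071 for ABCF1 and 0.089 for ABCF3. As TPM ABCB10 was at 0.011, and with coding transcripts only ABCB9 was at 0.026. Without both libraries numbered 1, ABCB10, ABCB8 and ABCB9 were at 0.017, 0.013 and 0.15. With scaling added, they were at 0.16, 0.17 and 0.25, ABCB6 at 0.016, ABCC10 at 0.15, ABCD3 at 0.0076, ABCD4 at 0.023, ABCF1 at 0.046 and ABCF3 at 0.071. With a library left out, ABCA10 ran from -0.17 to 0.29, ABCB10 from -0.47 to 0.096, ABCB9 from -0.37 to 0.026, ABCC1 from -0.99 to 0.063 and ABCF1 from -0.56 to 0.17. The cause was not tested. The replicate block changed no other member's call. With 3 libraries a group, the members' SEs of 0.286 to 0.641 in log2 limit what could be detected.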
